A study of Mus musculus with 4 samples.

Results

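Imprinted genes are expressed mainly or only from the maternal or the paternal chromosome, in at least some tissues. Whether each member is imprinted in cortex was not examined here. Most imprinted genes lie in clusters that share a control region methylated on a single parental allele. Because that methylation is set in the egg or the sperm and kept in body cells, a control region reads near 50% in bulk DNA when both alleles are counted together. At many clusters the control region is the promoter of a paternally expressed gene or of a long noncoding RNA, such as Peg3, Kcnq1ot1, Airn and Plagl1, and is methylated on the maternal copy. At H19 and at the Dlk1-Dio3 cluster it lies upstream of the noncoding RNA and is methylated on the paternal copy.

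DNA methylation at 52 imprinted genes in 17 clusters was examined in the authors' deposited table of regions that differ between Nsd1Nex-cKO mice (cKO, 2 libraries) and Nsd1fl/+ controls (2 libraries). Whole-genome bisulfite sequencing had been done on somatosensory cortex at 2.5 months. NSD1 methylates lysine 36 of histone H3, and Nex (Neurod6) is active in excitatory neurons of the cortex, so glia, interneurons and vessels of the tissue keep the gene. Whether the libraries of a group come from separate animals is not stated. The control carries a floxed allele, and whether it also carries Cre is not given in the sources used here. The table gives a mean per group and no value per library or per allele, so no spread between mice can be set beside a difference and the parental origin of a change cannot be read. In bulk DNA, a change in every cell and a change in the share of a cell type cannot be told apart. A region was counted for a gene when it overlapped the RefSeq gene body (GRCm38.p6, the assembly of mm10) widened by 5 kb on both sides. Of 101350 regions, 165 met this rule. They lay in the windows of 34 members and in 15 clusters. The share of all genes with a region of any context was not counted.

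To show the DNA in question, 5 start windows (250 bases before to 50 after a RefSeq start, GRCm38.p6, in the direction of the gene) are given with each CpG in capitals. The first 3 overlap a CG region of the table, and the other 2 lie just upstream of one. Peg3 (chr7:6730370-6730669, minus strand) holds 13 CpGs, 7 of them in the 99 bases that lie in a region lower in cKO. The upstream start of Mest (chr6:30733256-30733555, plus strand) lies wholly inside a region lower in cKO, with 8 CpGs. The start of Kcnq1ot1 (chr7:143296498-143296797, minus strand) has 9 CpGs and shares its last 10 bases, with 2 CpGs, with a region higher in cKO. Plagl1 (chr10:13090582-13090881, plus strand, 26 CpGs) and Nap1l5 (chr6:58907077-58907376, minus strand, 17 CpGs) are followed downstream by regions higher in cKO.
Peg3: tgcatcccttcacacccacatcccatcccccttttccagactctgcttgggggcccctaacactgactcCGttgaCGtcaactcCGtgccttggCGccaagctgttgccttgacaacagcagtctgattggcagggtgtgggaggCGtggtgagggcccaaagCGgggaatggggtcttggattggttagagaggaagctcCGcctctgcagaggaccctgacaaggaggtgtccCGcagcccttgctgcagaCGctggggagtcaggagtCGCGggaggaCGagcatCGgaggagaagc
Mest: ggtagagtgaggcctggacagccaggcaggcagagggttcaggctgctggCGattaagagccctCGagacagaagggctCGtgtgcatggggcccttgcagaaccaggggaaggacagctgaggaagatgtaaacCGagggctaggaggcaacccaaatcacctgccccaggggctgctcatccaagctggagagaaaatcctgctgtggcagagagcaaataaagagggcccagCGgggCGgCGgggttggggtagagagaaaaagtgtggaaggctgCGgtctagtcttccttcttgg
Kcnq1ot1: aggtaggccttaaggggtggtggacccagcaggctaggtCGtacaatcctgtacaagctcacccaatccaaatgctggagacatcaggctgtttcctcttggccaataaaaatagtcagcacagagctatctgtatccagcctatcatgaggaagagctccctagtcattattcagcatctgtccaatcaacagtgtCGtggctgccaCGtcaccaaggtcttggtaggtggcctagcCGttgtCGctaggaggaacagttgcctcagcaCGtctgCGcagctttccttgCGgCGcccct
Plagl1: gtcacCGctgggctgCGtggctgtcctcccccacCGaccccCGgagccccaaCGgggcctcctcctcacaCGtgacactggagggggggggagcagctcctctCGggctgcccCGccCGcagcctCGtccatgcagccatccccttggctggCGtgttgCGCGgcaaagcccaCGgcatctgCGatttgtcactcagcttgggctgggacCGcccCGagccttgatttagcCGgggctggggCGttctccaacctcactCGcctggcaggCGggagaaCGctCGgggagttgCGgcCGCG
Nap1l5: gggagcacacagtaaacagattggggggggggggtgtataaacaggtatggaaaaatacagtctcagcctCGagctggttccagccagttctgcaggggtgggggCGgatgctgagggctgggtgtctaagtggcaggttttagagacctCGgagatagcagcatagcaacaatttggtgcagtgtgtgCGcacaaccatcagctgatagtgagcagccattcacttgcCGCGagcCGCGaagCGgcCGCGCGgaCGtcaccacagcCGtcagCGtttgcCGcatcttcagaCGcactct

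Most CG regions of imprinted genes were lower in cKO. Of 84 CG regions, 71 were lower and 13 higher, and 11 of the 13 gains began from a control level below 40%, the others being at Nnat and Trappc9. The share that was higher was 15.5%, against 5.57% over the whole table and 12.8% in windows of protein-coding genes made in the same way. The losses went from a median of 75.2% in control (quartiles 64.2% and 80.9%) to 42.5% in cKO, close to the 76.0% and 42.4% of all CG losses in the table. The gains went from a median of 29.8% in control (quartiles 26.6% and 34.2%) to 53.2% in cKO, where all CG gains of the table went from 51.1% to 78.0%. They were also denser in CpGs, with a median of 16.3 per 100 bp against 11.0 for all CG gains. Of the 13 gains, 8 lay within 2 kb of a RefSeq start of a member, with medians of 29.8% in control and 51.4% in cKO. Gains that close to a start of a protein-coding gene began lower still, at a median of 13.3%, and reached 34.7%. A low control level of gains near starts is thus not particular to the members. CpG density was not compared among gains near starts alone. At least 1 CG loss was found in the windows of 24 members (46.2%) and at least 1 gain in those of 13 (25%). The windows of protein-coding genes held a loss in 26.5% and a gain in 8.21% of cases. The members are longer, with a median of 28.7 kb against 17.2 kb for protein-coding genes, and some of their windows share a region. Per 100 kb of window, there were 1.89 losses and 0.347 gains at the members and 1.43 and 0.210 at protein-coding genes. Of the 71 losses, 15 lay in the window of Ddc. Per cluster, CG regions ranged from 0 to 16.8 per 100 kb, so the pooled density does not hold for each cluster.

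**Figure D1:**
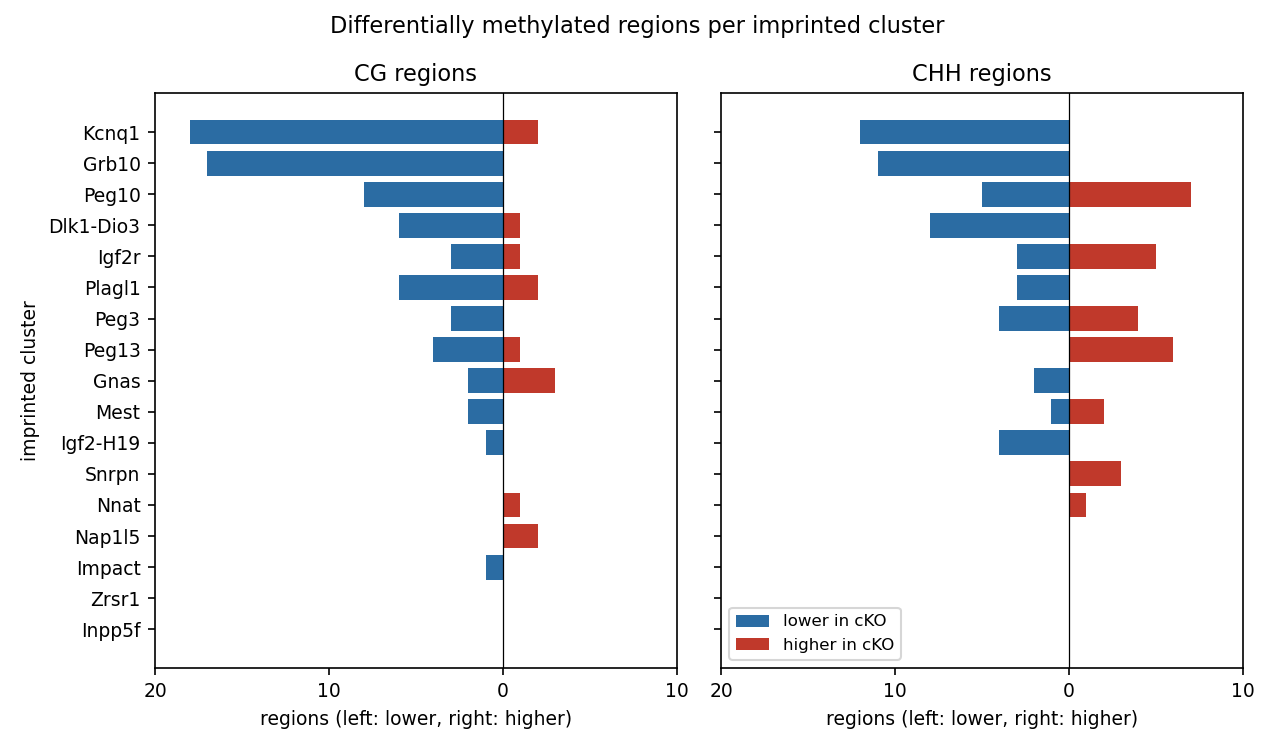
Number of regions per imprinted cluster in the CG context (left panel) and in the CHH context (right panel), with regions lower in cKO drawn to the left in blue and regions higher in cKO to the right in red. The Kcnq1 cluster holds 18 CG losses and the Grb10 cluster 17, while Zrsr1 and Inpp5f hold 0 regions.

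Close to the starts of imprinted genes, losses and gains were nearly balanced. Of the 84 CG regions, 18 lay within 2 kb of a RefSeq start of a member (21.4%). In windows of protein-coding genes made in the same way, 11.1% of CG regions lay as close to a start of such a gene. Of the 18, 8 were higher in cKO (44.4%), against 7.04% of the 2144 CG regions near a start of a protein-coding gene. The starts of members include those of noncoding RNAs. Over the whole table, 4.94% of the 4234 CG regions near a start of any gene were higher. Farther from the starts, 5 of 66 were higher (7.58%). The 66 include regions of members without a start entry, such as Cdkn1c, Impact and Trappc9. There are 12 such members, and the distance to their own starts could not be given. With both gene ends counted as starts for them, 10 gains and 13 losses lay near a start. The 8 gains within 2 kb of a RefSeq start lay in 7 clusters and the 10 losses in 6. In control the gains ranged from 25.1% to 52.5% and the losses from 52.0% to 80.5%, so that only the gain at Nnat overlapped the losses. In cKO the 2 sets overlapped, from 39.2% to 72.3% for the gains and from 25.5% to 51.8% for the losses. The gains were small, with a median of 19.2 points in the authors' deposited table, and 1 of them reached 30 points.

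**Figure D2:**
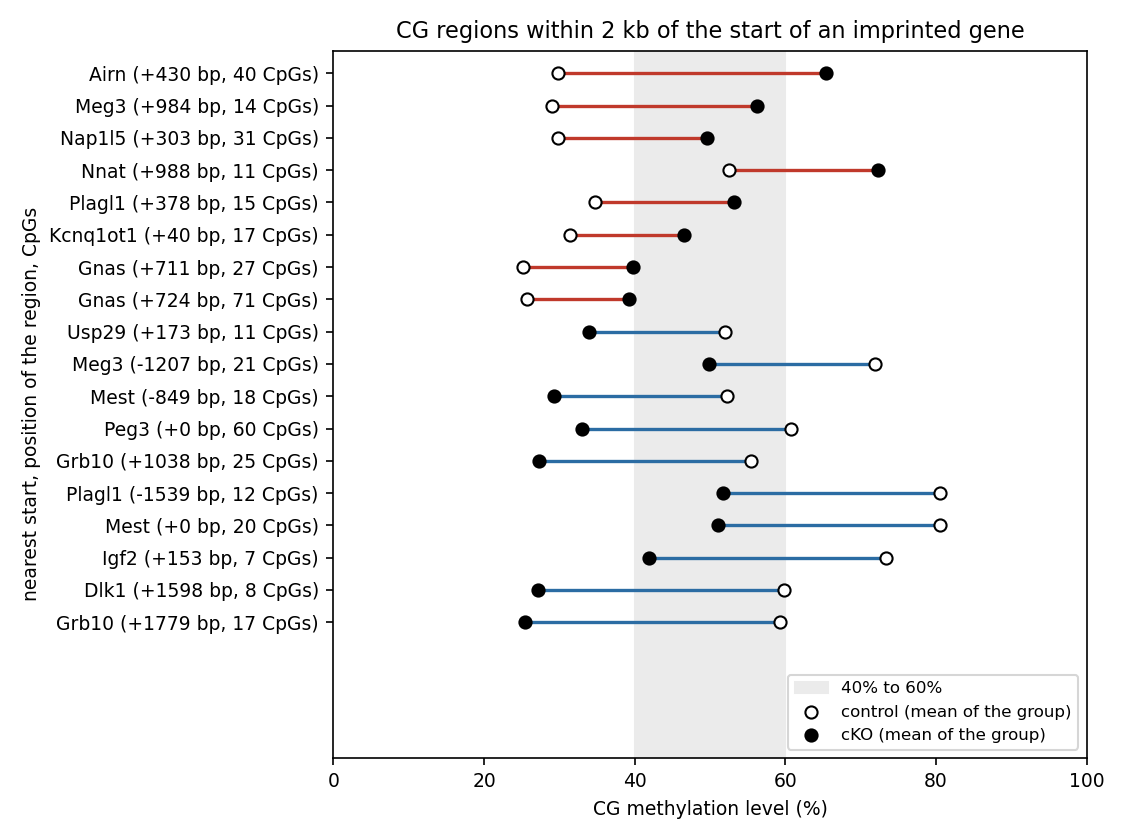
CG methylation level in percent (x axis) of the 18 CG regions within 2 kb of a start of an imprinted gene, each labelled by that gene, the position of the region relative to the start (0 where it spans the start) and its CpGs. Open circles are the control mean, filled circles the cKO mean, red lines gains and blue lines losses, and the grey band marks 40% to 60%. All but 1 of the gains begin left of the band.

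Regions just inside the noncoding RNAs Airn, Kcnq1ot1 and Meg3 had more CG methylation in cKO. Airn silences Igf2r and its neighbours on the paternal chromosome. The region 430 bp inside Airn, which also lies inside Igf2r (chromosome 17, 12741741 to 12742009, 40 CpGs), was at 29.9% in control and 65.5% in cKO, the largest of the gains near a start. Kcnq1ot1 is the antisense RNA that silences the Cdkn1c domain on the paternal chromosome. A region that begins 40 bp inside it (chromosome 7, 143296409 to 143296507, 17 CpGs) was at 31.4% in control and 46.6% in cKO. Meg3, the maternally expressed noncoding RNA of the Dlk1-Dio3 cluster, had changes on both sides of its start. The 21 CpGs that lie 1207 bp upstream went from 71.9% to 49.8% (chromosome 12, 109539593 to 109539789). The 14 CpGs at 984 bp downstream went from 29.0% to 56.2% (109541980 to 109542138). In the 20 kb upstream of Meg3, the stretch where the germline control region of the cluster lies, the table held 3 regions. Of these, the farthest CG region, 13314 bp from the start, went from 85.1% to 63.1% over 28 CpGs.

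At Gnas, whose several promoters give proteins and RNAs with different parental origin, 3 CG gains were listed. The region of 71 CpGs at 724 bp after a Gnas start (chromosome 2, 174328492 to 174328782) was at 25.7% in control and 39.2% in cKO. The region 711 bp after the most upstream start (174285031 to 174285134, 27 CpGs) went from 25.1% to 39.8%. The third (174297301 to 174297576, 45 CpGs), in the windows of both Gnas and its antisense RNA Nespas, went from 26.6% to 44.5%. All 3 control levels were well below 50%. Beside them, 2 CG regions of the locus were lower in cKO, at 48.7% in control against 26.6% (174299414 to 174299551, 16 CpGs) and 79.8% against 45.5% (174302685 to 174303487, 21 CpGs).

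Single genes whose promoters carry a maternal mark went both ways. Plagl1, a zinc finger factor that restrains the cell cycle, had a gain at 378 bp after its start (34.7% to 53.2%, 15 CpGs) and a loss at 1539 bp before it (80.5% to 51.8%, 12 CpGs). Nap1l5, a nucleosome assembly protein gene, held 2 gains and 0 losses. The gain at 303 bp after its start went from 29.8% to 49.6% (chromosome 6, 58906565 to 58906823, 31 CpGs), and the other from 21.5% to 52.1% over 6 CpGs. Nnat, which encodes a small membrane protein of the developing brain, went from 52.5% to 72.3% over 11 CpGs (chromosome 2, 157561066 to 157561116). Peg3, a zinc finger gene, shares a promoter stretch with Usp29, a ubiquitin protease gene read in the other direction. The region across the Peg3 start (chromosome 7, 6730063 to 6730468, 60 CpGs) went from 60.7% in control to 32.9% in cKO and had the largest area statistic of all CG regions here, -424 in the authors' deposited table. The region next to it, 173 bp inside Usp29, went from 52.0% to 33.9% over 11 CpGs. The region inside Impact, a regulator of translation (chromosome 18, 12974163 to 12974260, 34 CpGs), went from 57.5% to 38.3%.

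Mest and Grb10 had losses only. At Mest, a hydrolase-fold gene expressed from the paternal copy, the region across the upstream start went from 80.5% to 51.0% (chromosome 6, 30733219 to 30733592, 20 CpGs). The region at 849 bp before its downstream starts (30737053 to 30737201, 18 CpGs) went from 52.2% to 29.3%. Grb10 encodes an adaptor of insulin receptor signalling that is expressed from the paternal copy in neurons and from the maternal copy in most other tissues. Its 2 CG regions, 1038 bp and 1779 bp inside its 2 listed starts, went from 55.4% to 27.3% (chromosome 11, 12026722 to 12026933, 25 CpGs) and from 59.3% to 25.5% (12035345 to 12035641, 17 CpGs). Both control levels lay between 40% and 60%.

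The growth regulators Cdkn1c, Igf2 and Dlk1 carried CG regions too. Cdkn1c, a cell cycle inhibitor expressed from the maternal copy, held opposite changes within 2 kb. The 63 CpGs inside the gene (chromosome 7, 143459528 to 143459775) were at 40.7% in control and 20.2% in cKO. The 40 CpGs at 143461340 to 143461477, just outside the gene body on the side of its higher coordinates, were at 26.8% in control and 53.2% in cKO. Igf2, a fetal growth factor, had 1 CG loss at 153 bp after a start (73.4% to 41.9%, 7 CpGs). Dlk1, a membrane protein related to Notch ligands, had 3 CG losses, and the closest, at 1598 bp after its start, went from 59.8% to 27.2% over 8 CpGs. In the window of H19, the noncoding RNA that shares enhancers with Igf2, 0 CG regions were listed and 1 CHH region was lower in cKO (10.2% to 4.25%). In the 20 kb on both sides of H19 there were a CG loss 13743 bp from the gene, from 84.5% to 47.9% over 11 CpGs (chromosome 7, 142591889 to 142592068), and a second CHH loss 12838 bp from it, from 5.77% to 1.40%.

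**Figure D3:**
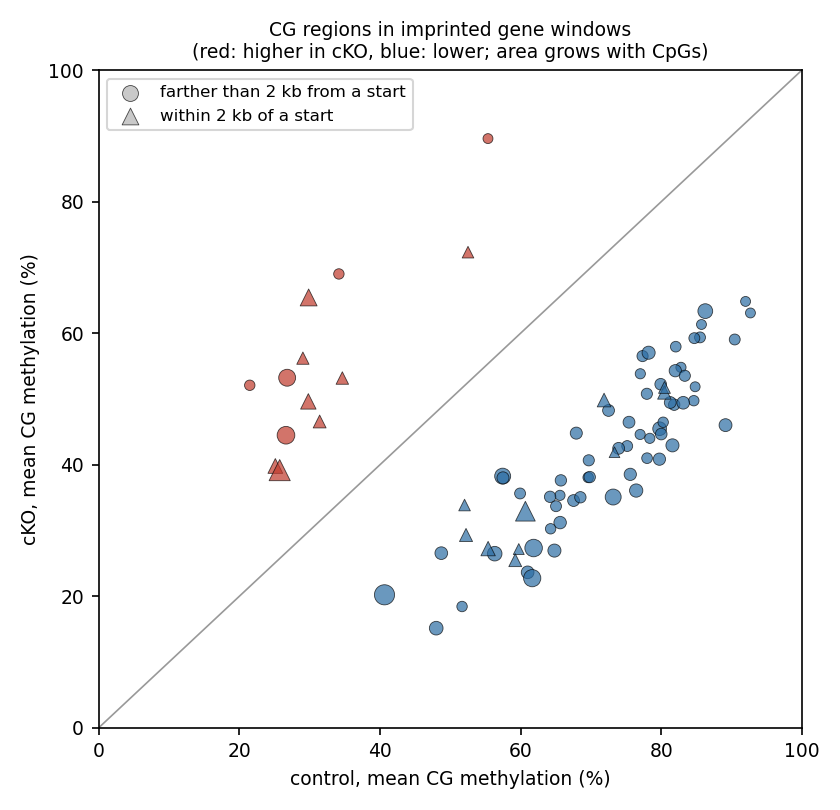
Mean CG methylation in control (x axis, percent) and in cKO (y axis, percent) of the 84 CG regions in imprinted gene windows, with triangles for regions within 2 kb of a start, circles for the others and symbol area growing with the number of CpGs. Gains (red, above the line of equality) had a median of 29.8% in control and losses (blue) one of 75.2%.

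Of the 84 CG regions, 15 had a control level between 40% and 60%, or 17.9%, where the whole table had 15%. Among the losses, 13 of 71 lay in this range (18.3%), against 13.4% of all CG losses. Among the gains it was 2 of 13 (15.4%), against 42.1% of all CG gains. Of the 18 regions near a start, 6 lay in this range (33.3%), against 22.0% of those near a start in windows of protein-coding genes. Those near a start, at Dlk1, Grb10, Mest, Usp29 and Nnat, are given above, and Peg3 at 60.7% lay just outside the range. The others included 21 CpGs inside Kcnq1 (chromosome 7, 143368042 to 143368356) that went from 48.0% to 15.2% and 26 CpGs inside Ddc that went from 56.3% to 26.5%. In Meg3, 8 CpGs at 109555093 to 109555182 went from 59.9% to 35.6%. In Airn, 6 CpGs at 12857558 to 12857738 went from 51.7% to 18.4%. In Trappc9, 13 CpGs at 73019846 to 73019935 went from 57.5% to 38.0%. The regions of Gnas (48.7%), Cdkn1c (40.7%), Impact (57.5%) and the gain of Trappc9 (55.4%) make up the rest. In cKO, 7 of the 13 gains stood between 40% and 60%, against 11.9% of all CG gains in the table. Among the losses the count was 36 of 71 (50.7%), against 43.4% of all CG losses. Of the 2626 CG gains of the table, 2417 lay farther than 2 kb from any start, with medians of 52.2% in control and 78.8% in cKO. The gains nearer to a start had medians of 17.4% and 39.8%. Of the 13 gains here, 8 lay near a start. Both contrasts for gains thus mix places, and the shares were not counted for gains near starts alone.

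Away from the promoters, many losses lay in the windows of a few genes of the clusters. These were not simply the longest members, since Snrpn (468 kb) and Copg2 (149 kb) held 0 CG regions. Here and for CHH, the strongest region of a gene is the one with the largest absolute area statistic in the authors' deposited table, which need not be the one with the largest difference. Ddc, the aromatic amino acid decarboxylase next to Grb10, had the most regions of any member, 15 CG losses and 10 CHH losses with 0 gains. Its CG regions stretched over 70.6 kb, with control levels from 56.3% to 92.0% and cKO levels from 23.6% to 64.8%. Kcnq1, a potassium channel subunit gene that contains Kcnq1ot1, had 13 CG losses and the 1 gain at the start of the antisense RNA. Its strongest loss (chromosome 7, 143389121 to 143389627, 42 CpGs) went from 61.7% to 22.8%. Plagl1 held 6 CG losses, among them 34 CpGs that went from 73.2% to 35.1% (chromosome 10, 13108008 to 13108884). Beyond its other end a gain of 6 CpGs went from 34.2% to 69.0%. Asb4, which encodes a part of ubiquitin ligases in the Peg10 cluster, had 4 losses within 6.39 kb, the strongest from 89.2% to 46.0% over 17 CpGs. Trappc9, a gene of vesicle trafficking that contains Peg13, had 4 losses, led by 12 CpGs that went from 81.3% to 49.5%. It also had 1 gain over 4 CpGs, from 55.4% to 89.6%. Airn had 3 losses far from its start, the strongest from 72.5% to 48.3% over 12 CpGs. The other two had larger differences over fewer CpGs, from 78.0% to 41.0% over 7 and from 51.7% to 18.4% over 6. Rtl1, Ascl2, Slc22a18, Sgce and Calcr had 1 CG loss each, and that of Sgce, from 85.7% to 61.3% over 4 CpGs, also lay in the window of Peg10.

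Outside CG, the windows held CHH regions of both directions. Of 81 CHH regions, 53 were lower and 28 higher in cKO, or 34.6% higher, against 16% in the whole table and 36.1% in windows of protein-coding genes. H stands for A, C or T, and methylation at such sites builds up in neurons after birth. The losses went from a median of 5.92% in control to 1.21% in cKO and the gains from 1.88% to 7.20%, beside 5.52% and 1.01%, and 1.69% and 6.90%, over the whole table. A CHH loss was listed for 22 members (42.3%) and a gain for 9 (17.3%), against 22.4% and 16.3% of protein-coding genes. Per 100 kb of window there were 1.41 losses and 0.747 gains at the members and 1.21 and 0.685 at protein-coding genes. Usp29 was the 1 member with both, 4 of each. Many members held a single CHH region and so could not hold both. The share of protein-coding genes with both was not counted, so nothing is read from this. CHG regions numbered 0 in the windows, of 619 in the table.

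**Figure D4:**
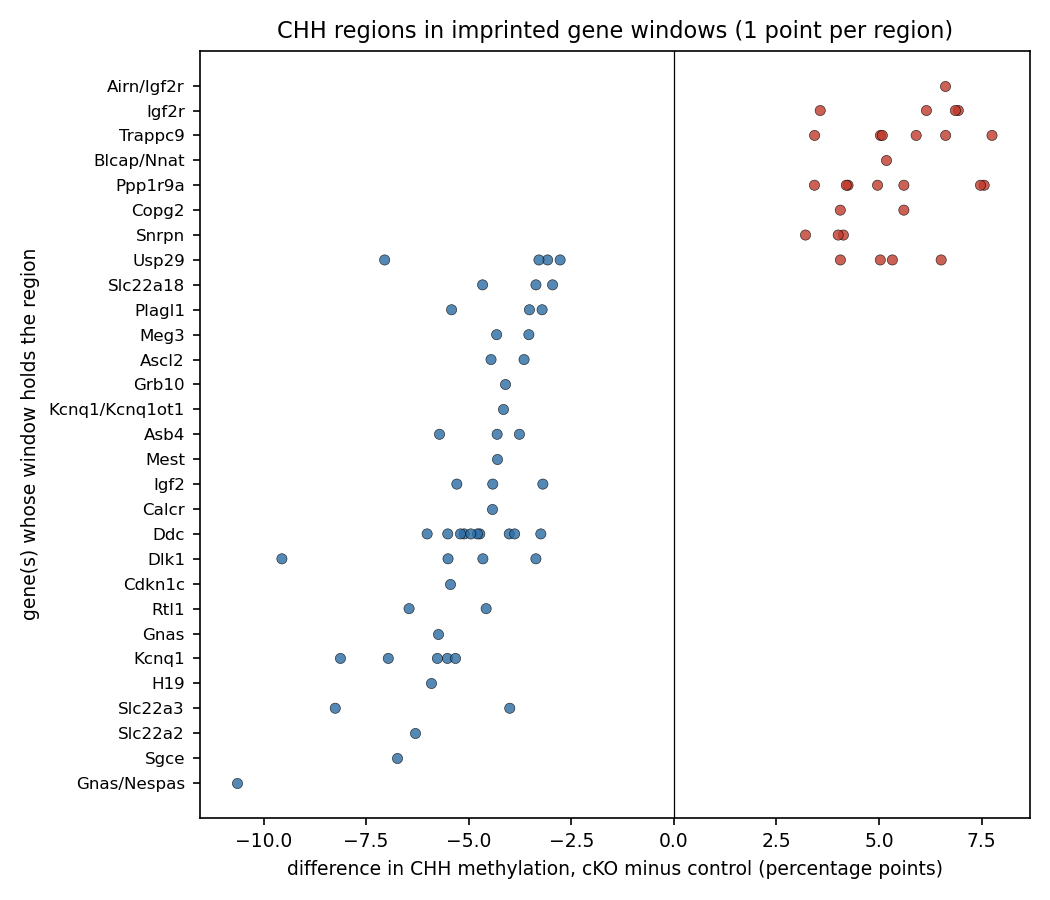
Difference in CHH methylation between the group means, cKO minus control in percentage points (x axis), for each of the 81 CHH regions, set in rows by the gene or genes whose window holds them. Regions of a row lie on the same side of 0, except in the row of Usp29. Many rows hold a single region.

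Ppp1r9a had the most CHH gains of the 9 members with any. It encodes neurabin, which binds actin at synapses, and its 7 gains reached from 4.26% to 14.9% in cKO, against 0.831% to 7.31% in control. The strongest of these gains went from 1.14% to 6.11% (chromosome 6, 4928554 to 4928722). The 2 CG regions of Ppp1r9a were losses (78.2% to 57.0% and 83.1% to 49.4%), the opposite direction. Trappc9 held 6 CHH gains, the strongest from 5.04% to 12.8% (chromosome 15, 72755226 to 72755422). Igf2r, the receptor that clears IGF2, held 5, the strongest from 4.04% to 10.9% (chromosome 17, 12726976 to 12727172), and 1 of them overlaps Airn. Snrpn, a splicing protein gene of the Prader-Willi cluster, held 3, from 0.159%, 0.342% and 0.435% in control to 4.16%, 4.47% and 3.64% in cKO. Copg2 held 2, the strongest from 2.33% to 7.93%, and the shared window of Nnat and Blcap held 1, from 2.46% to 7.61%. In Usp29 the strongest gain went from 3.73% to 10.2% and the strongest loss from 10.7% to 3.65%.

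CHH losses had their largest differences at Gnas and Dlk1. At Gnas and Nespas, 97 cytosines went from 12.4% to 1.76% (chromosome 2, 174289805 to 174290073). At Dlk1, a region 838 bp before the start went from 11.4% to 1.84% over 53 cytosines. At Igf2, 3 losses lay within 1.95 kb around its most upstream start, with the strongest, over 113 cytosines, from 6.50% to 1.21%. At the upstream start of Mest, 89 cytosines went from 4.95% to 0.627%, overlapping the CG loss there. Inside Kcnq1 the strongest of 6 losses went from 10.2% to 2.03%, and in the window of Rtl1 that of 2 from 7.07% to 0.620%. Inside Ddc the strongest of 10 went from 7.08% to 1.88%, and the one with the largest difference from 7.44% to 1.43% (chromosome 11, 11884287 to 11884497). Before the start of Asb4 111 cytosines went from 8.10% to 2.39%. Plagl1 had 3 losses, the strongest from 4.27% to 0.754% and the one with the largest difference from 8.39% to 2.97% (chromosome 10, 13095928 to 13095996). The window of Slc22a3, an organic cation transporter gene, had 2, the stronger from 4.85% to 0.847% over 91 cytosines and the other from 8.97% to 0.715% over 43. Slc22a18 had 3, Ascl2 and Meg3 2 each, and Slc22a2, Sgce, Calcr, Cdkn1c, Kcnq1ot1, Grb10 and H19 1 each.

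No region of any context was listed for 18 members. These are Zim1, Phlda2, Cd81, Tssc4, Rian, Mirg, Dio3, Klf14, Snurf, Ube3a, Ndn, Magel2, Mkrn3, Zrsr1, Commd1, Inpp5f, Peg13 and Kcnk9. Zrsr1 and Inpp5f, both with control regions methylated on the maternal copy, were thus without a region over their whole clusters, and the Snrpn cluster had 0 CG regions. The table lists called regions only, so a gene without one is not shown to be unchanged. The share of protein-coding genes without a region of any context was not counted, so nothing is read from the 18. At the edge of the windows, the outermost CG region inside, 4775 bp from Cdkn1c, stood at 92.7% in control and 63.1% in cKO. The first region outside, 5961 bp from the same gene, was a CHH loss from 6.13% to 0.736%.

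Of 29 imprinted genes outside the members, 10 carried a CG loss (34.5%, against 26.5% of protein-coding genes), with 25 regions in all. A CG gain was listed for 0 of them, where 8.21% of protein-coding genes held one, and with so few genes nothing is read from that count. Rasgrf1, a paternally expressed exchange factor for Ras, went from 55.5% to 22.6% and Zdbf2 from 63.8% to 28.2% in their strongest regions. Ano1, a chloride channel gene, had 5 CG and 9 CHH losses, and Atp10a 5 CG losses. Among 6 genes that encode proteins guarding imprints (Zfp57, Zfp445, Trim28, Ctcf, Smchd1 and Dppa3), 1 had a region, a CG loss at Dppa3 from 74.1% to 56.9%. That is 16.7% of these genes, against 26.5% of protein-coding genes with a CG loss, and nothing is read from so few.

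The hexamer TGCCGC, which ZFP57 binds when methylated, was searched on both strands in the start windows. It was present in 15 of 58 windows of members (25.9%) and in 11.6% of 32851 windows of all genes. It occurred in 7 of the 20 member windows with a CG region within 2 kb, among them those of Plagl1 and Nap1l5. The 7 also include the downstream windows of Mest, which overlap and were counted separately. The hexamer was absent from the windows of Peg3, Kcnq1ot1 and the upstream start of Mest printed above. Windows of 1 gene can overlap, and Snrpn and Snurf have the same window, which holds the hexamer and was counted for each. Member windows held more CpGs, with a median of 13.5 against 7 for all genes. In the 20 with a CG region within 2 kb the median was 17. The shares were thus not compared on equal CpG content.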

How the data were processed

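Whole-genome bisulfite sequencing of somatosensory cortex had been made from 2 cKO and 2 control libraries. CASAVA, Bowtie2 and the build mm10 are named in the submitters' processing notes, without versions. How regions were called, with which thresholds and replicates, and how completely cytosines were converted is not given in the sources used here. Per the file headers, each region has a mean level per group as a fraction from 0 to 1, deposited by the authors and printed here as a percent. Its difference (cKO minus control) and its area statistic are a score of the authors, used to describe and rank regions. The deposited number of cytosines, length and context were used as given. Coverage is not in the file. The depth is therefore unknown, and neither a test over mice nor an interval could be made.

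Regions were assigned with Python 3.11.15 and pandas 2.3.3. The 51 members matched by symbol and Nespas by its synonym. Genes placed in the first 3 Mb of a chromosome other than Y, which is an assembly gap, were left out of the 21779 protein-coding genes. A region near a start lay within 2 kb of a start in the RefSeq start table, which holds 58 entries for 40 members. Counting was tested on planted regions. Named regions are, per cluster and direction, those with the largest absolute area statistic in CG and CHH, all CG regions at 40% to 60% in control or near a start, and the 5 members with the most regions. Others, such as the further CHH regions, were chosen after their values were seen. Members and lists were chosen with earlier results of these data known. Of 30 other imprinted genes 29 matched. The planned search for the hexamer in the regions themselves was not run, since no genome was used here, and start windows were searched instead.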

Additional observations from a re-analysis of the deposited data

How the results depend on the processing

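The counts of regions and of members by context and direction, the counts near 50% and near starts and the CG medians were recomputed under 5 to 7 of 10 other settings each, which gave 77 values. CHH medians, densities, hexamer shares and the counts for other imprinted genes were not recomputed. Of the 77 values, 64 stayed within 1.5 times the reported count or within the quartiles of the reported regions. Counts carry no direction and the medians were taken within a direction, so no turn in direction was possible. With differences of at least 30 points in CG and 5 points in CHH, 37 CG losses, 4 CG gains, 23 CHH losses and 17 CHH gains were left, in 13 members for CG losses and 5 for CG gains. The CG gains left had a median of 34.5 points. Near the starts that filter left 3 losses and 1 gain, at Airn, so the near balance there rests on small differences, and 5 regions near 50% in control were left. With at least 10 cytosines, 43 CG losses were left. Within 1 kb of a start there were 5 losses, beside 8 gains. With the range of 45% to 55% 6 regions stood near 50% in control. Counting both gene ends as starts for the 12 members without a start entry, a setting added after the data were seen, gave 13 losses and 10 gains. The first effect follows from fewer regions being kept. The searches for the hexamer in the regions and in 500 bases around them were not run, for want of a genome here. No paired analysis was possible because the table holds group means only, and for the same reason no library could be left out.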
